A study of Mus musculus with 6 samples.

Results

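The genes described here are 41 ligands, receptors, SMAD proteins, latency proteins, inhibitors and targets of transforming growth factor beta (TGF-beta) and bone morphogenetic protein (BMP) signalling. They were found by gene symbol in the deposited expression table, and all 41 were present among its 13595 genes. RNA was sequenced from primary CD31-positive cells of the livers of C57BL6/J mice aged 4 weeks, grown in culture, in 3 libraries labelled male and 3 labelled female with replicate numbers 4, 5 and 6. Cells of every library had received 100 µM indoxyl sulfate, an agonist of the aryl hydrocarbon receptor (AHR), together with hypoxia and nutrient deprivation lasting 6 hours. The labelled sexes under that shared treatment are thus the sole contrast, and the effect of the treatment itself was not analysed here. The labels do not say whether replicates are mice, isolations or wells, so p-values may measure technical spread alone.

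TGF-beta, activin and BMP ligands are dimers that bring type II receptor kinases together with type I receptors, which phosphorylate receptor-regulated SMADs. The TGF-beta and activin branch uses Smad2 and Smad3, the BMP branch uses Smad1, Smad5 and Smad9, and both branches share Smad4. In endothelium, the type I receptor Acvrl1 and the co-receptor Eng carry BMP-type signals that induce the Id genes, and loss of either gene's function causes vascular malformations in humans. TGF-beta is secreted bound to latent TGF-beta binding proteins (LTBPs) and has to be released before it can act.

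The windows around 4 annotated starts are shown: those of Id2, Id3 and Tgfbi because these are the members grouped as targets that have a window, and that of Smad6 because it is the member with the palindromic SMAD element. Each window runs from 250 bases before to 50 bases after a RefSeq start, in build GRCm38.p6, and is written in the direction of the gene. Capitals mark 3 motifs searched on both strands: the GC-rich SMAD element GGCGCC, the SMAD core CAGAC, which reads GTCTG on the opposite strand, and the palindromic SMAD element GTCTAGAC. The windows lie at chr12:25096043-25096342, minus strand (Id2), at chr4:136143572-136143871, plus strand (Id3), at chr9:64022010-64022309, minus strand (Smad6) and at chr13:56609336-56609635, plus strand (Tgfbi).
Id2: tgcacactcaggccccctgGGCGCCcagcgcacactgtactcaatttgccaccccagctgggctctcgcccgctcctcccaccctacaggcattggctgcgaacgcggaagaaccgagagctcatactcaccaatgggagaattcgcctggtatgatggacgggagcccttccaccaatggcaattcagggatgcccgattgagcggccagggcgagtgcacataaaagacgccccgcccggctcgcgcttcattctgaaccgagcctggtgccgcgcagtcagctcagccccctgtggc
Id3: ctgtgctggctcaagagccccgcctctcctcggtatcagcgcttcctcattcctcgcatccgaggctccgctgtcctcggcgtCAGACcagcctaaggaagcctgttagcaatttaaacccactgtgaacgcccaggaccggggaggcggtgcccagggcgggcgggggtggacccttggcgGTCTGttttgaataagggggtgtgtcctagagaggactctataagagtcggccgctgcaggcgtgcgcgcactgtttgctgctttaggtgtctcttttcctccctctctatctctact
Smad6: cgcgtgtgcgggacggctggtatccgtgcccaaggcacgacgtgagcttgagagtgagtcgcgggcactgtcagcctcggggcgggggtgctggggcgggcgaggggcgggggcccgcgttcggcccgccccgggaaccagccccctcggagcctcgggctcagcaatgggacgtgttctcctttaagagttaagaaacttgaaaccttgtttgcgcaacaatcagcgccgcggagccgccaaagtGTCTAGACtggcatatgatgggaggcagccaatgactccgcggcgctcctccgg
Tgfbi: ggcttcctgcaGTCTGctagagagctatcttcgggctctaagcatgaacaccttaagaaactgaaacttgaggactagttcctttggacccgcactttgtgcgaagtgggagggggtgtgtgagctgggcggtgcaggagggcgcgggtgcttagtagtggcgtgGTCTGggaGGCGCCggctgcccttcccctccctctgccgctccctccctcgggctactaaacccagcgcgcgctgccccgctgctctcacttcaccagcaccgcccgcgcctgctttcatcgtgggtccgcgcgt
The Id2 window holds 1 GGCGCC, which begins 231 bases before the start, and the Id3 window holds the SMAD core beginning 167 and 68 bases before it. The Smad6 window holds the palindrome, beginning 4 bases before the start. The Tgfbi window holds 1 GGCGCC and 2 cores, which begin 77 bases (GGCGCC) and 239 and 85 bases (cores) before the start. GGCGCC occurs in 11.9% of all 32851 such windows in the table, CAGAC in 49.6% and GTCTAGAC in 0.213%. The 31 members with an entry have 41 windows, since some have several starts, and of these 41 windows 13 held GGCGCC, 18 held CAGAC and 1, that of Smad6, held GTCTAGAC. Some windows of a member overlap, so the same site can be counted more than once. By member, 11 of the 31 had GGCGCC and 15 had CAGAC. A short HIF core, ACGTG, was found in 10 of the 41 (19.6% of all windows) and the AHR core GCGTG in 24 (32.4% of all windows), with matches of either motif counted on both strands. A match describes the letters only.

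Depth ranged from 22303270 to 31189363 reads per library over the genes of the table, and the members took between 0.449% and 0.588% of them. Xist, the RNA of X inactivation, was at 0.124 to 0.458 normalized reads in the libraries labelled male and at 234 to 324 in those labelled female. The Y-linked genes went against the labels: Ddx3y was at 47.2 to 76.3 in the former and 48.5 to 57.8 in the latter, and Uty at 23.7 to 31.9 and 22.2 to 27.7, neither called. Eif2s3y, at 55.3 to 61.2 and 29.4 to 30.2, and Kdm5d, at 30.7 to 37.5 and 17.6 to 20.8, were called lower in the libraries labelled female (limma adjusted p 5.75e-06 and 0.000129) but present in all of them. RNA of Y-linked genes was thus present in every library labelled female. Whether it came from male cells was not tested, and every female value below carries that doubt. Directions below therefore refer to libraries labelled female against libraries labelled male. Of the defining markers of the labelled cell type some were present and others near 0, with Pecam1 (CD31) at 391 to 423 in male libraries and 73.5 to 74.5 in female ones, and Cdh5 at 918 to 929 and 374 to 397. The other endothelial markers ranged widely, and those given here were picked after their values were seen. Emcn was at 366 to 440 in male and 296 to 314 in female libraries, and Esam was at 123 to 142 and 42.5 to 49.1, whereas Vwf was at 34.9 to 40.3 in male and 0.373 to 0.570 in female libraries, Erg at 9.85 to 11.4 and 0.570 to 1.99, and Egfl7 at 39.1 to 60.8 and 2.28 to 3.53, while Kdr was at most 3.96 and Cldn5 at most 0.883 in any library. Of the sinusoidal markers, Stab2 was at most 0.415 in any library, while Lyve1 was at 470 to 513 in male and 4.37 to 5.48 in female libraries. Genes of other cell types differed as well, and their part in the results below was not tested. Of 14 tested stellate, mural and fibroblast markers, 5 were higher and 9 lower in female libraries, with a summed level of 2901 to 3738 in male and 3575 to 4294 in female libraries. Among them Acta2 was at 45.9 to 134 in male and 1513 to 1887 in female libraries, Pdgfrb at 129 to 136 and 13.04 to 15.3, Des at 6.97 to 9.11 and 12.5 to 16.9, and Col1a1 at 535 to 575 and 337 to 361. Of 3 tested sinusoidal markers 1 was higher and 2 lower (summed level 494 to 533 in male and 39.99 to 42.0 in female libraries), and of 4 tested cholangiocyte markers 1 was higher and 3 lower (1637 to 2484 and 509 to 610). Of 5 tested mesothelial markers 4 were higher and 1 lower (425 to 519 and 498 to 505). That 1 was Krt19, which is also in the cholangiocyte list and makes up most of the male sum, whereas Wt1 was at 0.0829 to 0.114 and 11.7 to 13.6 and Upk1b at 0.498 to 0.648 and 29.1 to 41.1, both picked after their values were seen. Both tested macrophage markers were higher (7.30 to 9.57 and 11.97 to 14.3), while no hepatocyte marker passed the filter (1.80 to 2.36 and 0.354 to 0.415). Mesothelial Msln was at 17.1 to 20.6 and 299 to 358, Krt19 at 407 to 498 and 97.8 to 138, Alb at most 0.600, Ptprc at most 0.332, and Adgre1 (listed as Emr1) held no read in any library, which allows up to 0.142 normalized reads in the shallowest.

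Of the 41 members, all passed the filter on low values and 33 were called, meaning a limma p adjusted over all tested genes under 0.05, with 14 higher and 19 lower in female libraries. The share of 80.5% stands beside 69.3% of all 12568 genes tested, of which 34.6% were higher and 34.6% lower. The male and female libraries did not overlap for 37 members (90.2%), against 74.1% of all tested genes. Of the members, 19 (46.3%) were called with a log2 fold change of at least 1 in size, a limit chosen after the values were known, against 20.6% of all tested genes. They included ligands, receptors, SMADs and targets but none of the secreted antagonists, the nuclear repressors or Smad4. The share for all tested genes is not fully comparable. Every member held at least 40 reads in each library, whereas a gene was tested from a value of 1 in 3 libraries. Changes of weakly expressed genes are understated on this scale, and the members were chosen with earlier results known. The median log2 fold change of the members was -0.25 and that of all tested genes 0.01. The median size of change, whatever the sign, was 0.66 for the members and 0.46 for all tested genes. In bulk samples, fewer cells of a type and less RNA per cell cannot be told apart.

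**Figure D1:**
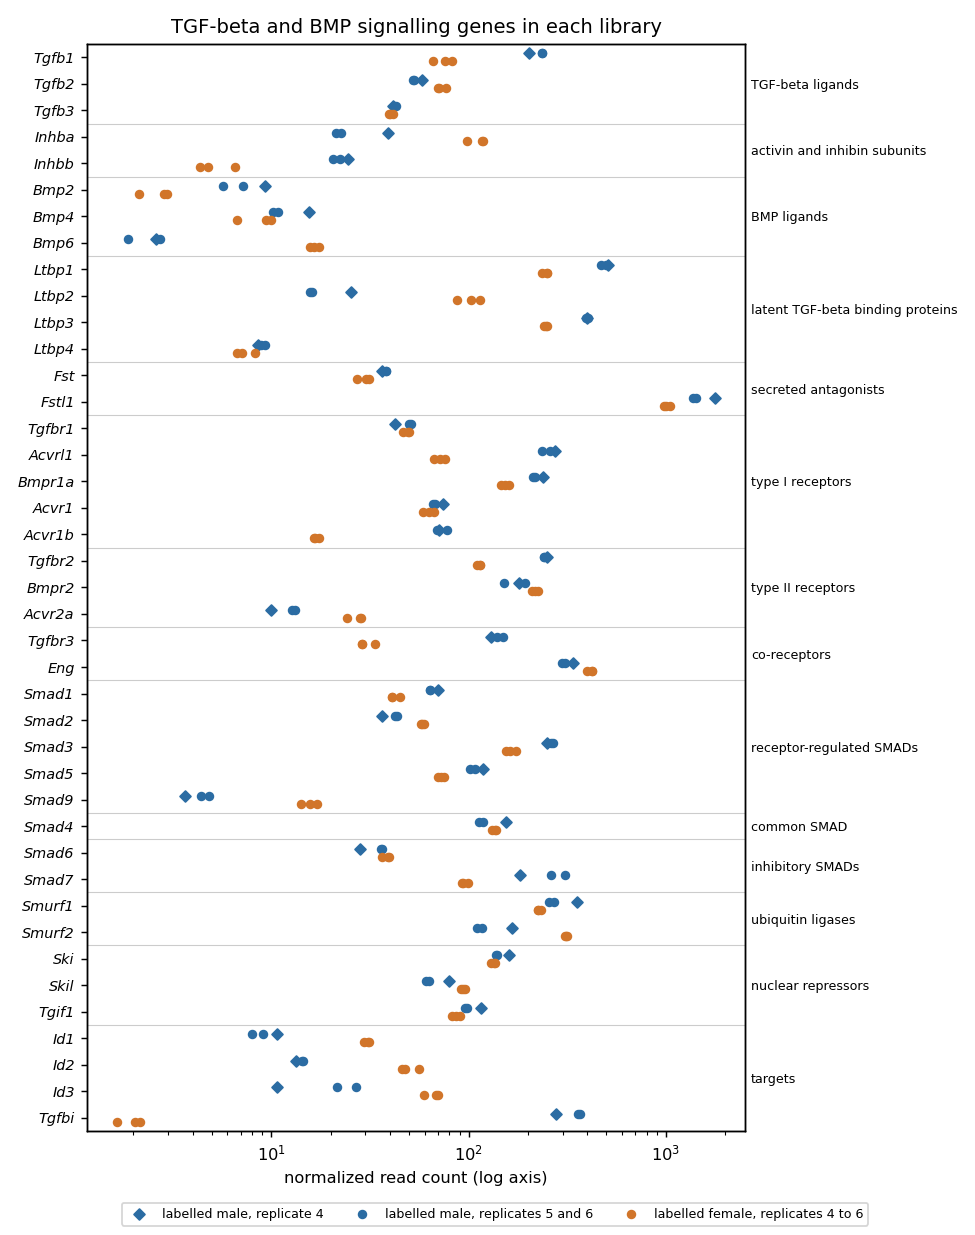
Normalized read count of each member (log axis) in each of the 6 libraries, grouped by role, with blue for libraries labelled male (diamond for replicate 4) and orange for those labelled female. The groups do not overlap for 37 of the 41 members, and the widest gap is that of Tgfbi, at 277 to 369 in male and 1.66 to 2.17 in female libraries.

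The 3 TGF-beta ligand genes moved apart. Tgfb1, the ligand gene of most adult tissues, had normalized read counts of 202, 237 and 237 in male 4, 5 and 6, and of 82.3, 75.6 and 66.1 in female 4, 5 and 6. Every female library was thus below every male one, at 33.1% of the male mean (log2 fold change -1.58, SE 0.10, limma adjusted p 2.36e-06). Tgfb2 stood at 58.4, 53.0 and 52.2 in the male libraries and at 70.3, 71.3 and 76.6 in the female ones, a smaller difference in the opposite direction (log2 fold change 0.41, SE 0.07, limma adjusted p 0.000933). Tgfb3 ranged from 41.4 to 42.8 and from 39.4 to 41.3 and was not called (log2 fold change -0.06, 95% interval -0.21 to 0.08, limma adjusted p 0.409). Per kb of exon, Tgfb1 was the most abundant of the 3 in both groups, at 104 ± 9.24 and 34.3 ± 3.74 (SD, n = 3). Its share of the summed level per kb of the 3 ligands was 81.8% ± 1.70 in male and 56.9% ± 3.08 in female libraries (SD, n = 3), while that of Tgfb2 was 8.34% ± 1.13 and 23.3% ± 2.40 and that of Tgfb3 9.84% ± 0.584 and 19.8% ± 0.676. Tgfb2 and Tgfb3 stood close to each other in each group, in the opposite order in the 2 groups.

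The activin subunit genes went in opposite directions. Inhba, whose homodimer is activin A, was at 39.2, 22.5 and 21.3 in male 4, 5 and 6 and at 118, 118 and 98.1 in the female libraries, so that male 4 was the nearest male library to the female ones. The difference was 4.03-fold (log2 fold change 2.02, SE 0.21, limma adjusted p 4.40e-05). Inhbb, the subunit of activin B, fell from 22.5 ± 1.98 to 5.23 ± 1.17 (SD, n = 3; log2 fold change -1.93, SE 0.14, limma adjusted p 6.91e-06). Per kb of exon the subunits were close together in male libraries, at 4.33 ± 1.56 for Inhba and 5.29 ± 0.466 for Inhbb, but at 17.4 ± 1.79 and 1.23 ± 0.274 in female ones (SD, n = 3).

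The 3 BMP ligand genes were all weakly expressed, and they also differed among themselves. Bmp6, which liver endothelium makes as the signal for hepatic iron regulation, was at 2.61, 2.75 and 1.87 in the male libraries and at 16.6, 15.7 and 17.4 in the female ones. The female level was 6.88-fold the male level (log2 fold change 2.37, SE 0.13, limma adjusted p 1.09e-06). Bmp2, a second endothelial ligand of the same iron pathway, was at 9.33, 7.17 and 5.69 in the male libraries and 2.86, 2.96 and 2.14 in the female ones. It fell to 35.9% of the male level (log2 fold change -1.18, SE 0.18, limma adjusted p 0.000388). Bmp4 was at 15.5, 10.2 and 10.9 against 6.68, 9.46 and 10.02, groups that just failed to overlap, and was not called (log2 fold change -0.44, limma adjusted p 0.0643). It was called lower without male replicate 5 (log2 fold change -0.54, limma adjusted p 0.0460). The difference shrank without male replicate 4 (-0.27, limma adjusted p 0.136) or female replicate 4 (-0.28, limma adjusted p 0.221). The gene Txndc5 shares 6.23% of the exon bases of Bmp6 and was at 372 ± 21.3 and 377 ± 19.0 (SD, n = 3) without a call (limma adjusted p 0.818).

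Among the 4 LTBP genes, 1 was higher and 2 were lower. Ltbp1 and Ltbp3, which tether latent TGF-beta in the matrix, were the most abundant. Ltbp1 was at 507, 469 and 496 in the male libraries and 235, 250 and 249 in the female ones (log2 fold change -1.003, SE 0.06, limma adjusted p 1.94e-06), and Ltbp3 fell from 397 ± 6.34 to 247 ± 5.32 (SD, n = 3, log2 fold change -0.69). Ltbp2, which does not bind latent TGF-beta and is known as a microfibril protein, was at 25.3, 15.7 and 16.1 against 115, 103 and 87.9. It was 5.35-fold higher in female libraries (log2 fold change 2.38, SE 0.18, limma adjusted p 7.20e-06). Ltbp4 was low in all 6 libraries, at 8.54 to 9.29 and 6.72 to 8.31, and not called (log2 fold change -0.25, limma adjusted p 0.0690), but it was called lower without male replicate 4 (-0.27) or without female replicate 5 (-0.32).

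Both secreted antagonists were lower, beside 34.6% of all tested genes. Fst encodes follistatin, which binds activins, and was at 36.5, 38.2 and 38.1 in the male libraries and 27.3, 30.3 and 31.2 in the female ones (log2 fold change -0.34, SE 0.08, limma adjusted p 0.00416). Fstl1, a secreted glycoprotein of the follistatin family, had the highest level of all members per kb, 401 ± 58.2 and 266 ± 10.1 (SD, n = 3), and its log2 fold change was -0.58 (limma adjusted p 0.00109). With Inhba higher and Fst lower, the log2 ratio of Inhba to Fst within a library was -0.48 ± 0.505 in male and 1.87 ± 0.232 in female libraries (SD, n = 3). Male 4, at 0.10, stood above male 5 and 6, at -0.74 and -0.81.

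Of 5 type I receptor genes, 3 were lower and 2 were not called. Acvrl1, the endothelial receptor for circulating BMPs, was at 274, 236 and 257 in the male libraries and 71.6, 76.4 and 67.2 in the female ones. It fell to 28.1% of the male level (log2 fold change -1.82, SE 0.08, limma adjusted p 3.07e-07). Acvr1b, the activin receptor, was at 70.7, 69.0 and 77.3 against 16.4, 16.8 and 17.4, the larger drop (log2 fold change -2.04, SE 0.07, limma adjusted p 1.52e-07). Bmpr1a fell from 223 ± 14.6 to 154 ± 7.16 (SD, n = 3, log2 fold change -0.53). Tgfbr1, the TGF-beta type I receptor, was at 42.3 to 50.8 and 46.5 to 50.01 (log2 fold change 0.03, 95% interval -0.16 to 0.23, limma adjusted p 0.735), with a sign that turned without male replicate 4 (-0.05). Acvr1 was not called either (log2 fold change -0.14, 95% interval -0.32 to 0.03, limma adjusted p 0.122).

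The order of the type I receptors changed accordingly. Per kb of exon, male libraries had Acvrl1 at 67.3 ± 4.996, Bmpr1a at 36.9 ± 2.41, Acvr1 at 19.1 ± 1.21, Acvr1b at 16.4 ± 0.998 and Tgfbr1 at 7.43 ± 0.725 (SD, n = 3). In female libraries the order was Bmpr1a at 25.4 ± 1.18, Acvrl1 at 18.9 ± 1.21, Acvr1 at 17.3 ± 1.15, Tgfbr1 at 7.59 ± 0.300 and Acvr1b at 3.81 ± 0.113 (SD, n = 3). Acvrl1 and Acvr1 in the female libraries lay within 2 SD of each other. The log2 ratio of Acvrl1 to Tgfbr1 within a library fell from 2.40 ± 0.241 to 0.55 ± 0.141 (SD, n = 3), with no overlap between groups.

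The type II receptors and co-receptors were all called, in differing directions, beside 69.3% of all tested genes. Tgfbr2, the TGF-beta type II receptor, was at 251, 241 and 241 in the male libraries and 110, 115 and 114 in the female ones (log2 fold change -1.11, SE 0.05, limma adjusted p 6.46e-07). Bmpr2, the BMP type II receptor, was modestly higher, at 180, 193 and 151 against 210, 218 and 224 (log2 fold change 0.32, SE 0.09, limma adjusted p 0.0127). Acvr2a, an activin and BMP type II receptor, was at 9.95, 13.2 and 12.8 against 28.2, 24.4 and 28.5, a 2.26-fold higher level (log2 fold change 1.12, SE 0.12, limma adjusted p 6.39e-05). Orc4, which shares 7.84% of the exon bases of Acvr2a, was also higher, at 34.3 ± 3.76 and 49.2 ± 2.51 (SD, n = 3). Tgfbr3, the co-receptor betaglycan that presents TGF-beta ligands, was at 130, 140 and 150 against 28.8, 28.7 and 33.4. It fell to 21.7% of the male level (log2 fold change -2.17, SE 0.08, limma adjusted p 2.09e-07). Eng, the endothelial co-receptor endoglin, went the other way, at 337, 307 and 296 against 422, 423 and 399 (log2 fold change 0.40, SE 0.07, limma adjusted p 0.000734). Of 11 tested endothelial markers, a list without Eng, 10 were lower in female libraries, beside 34.6% of all tested genes. Kdr was not called. The list summed to 2079 to 2167 in male and 821 to 852 in female libraries. Any relation of these markers to the level of Eng was not tested.

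**Figure D2:**
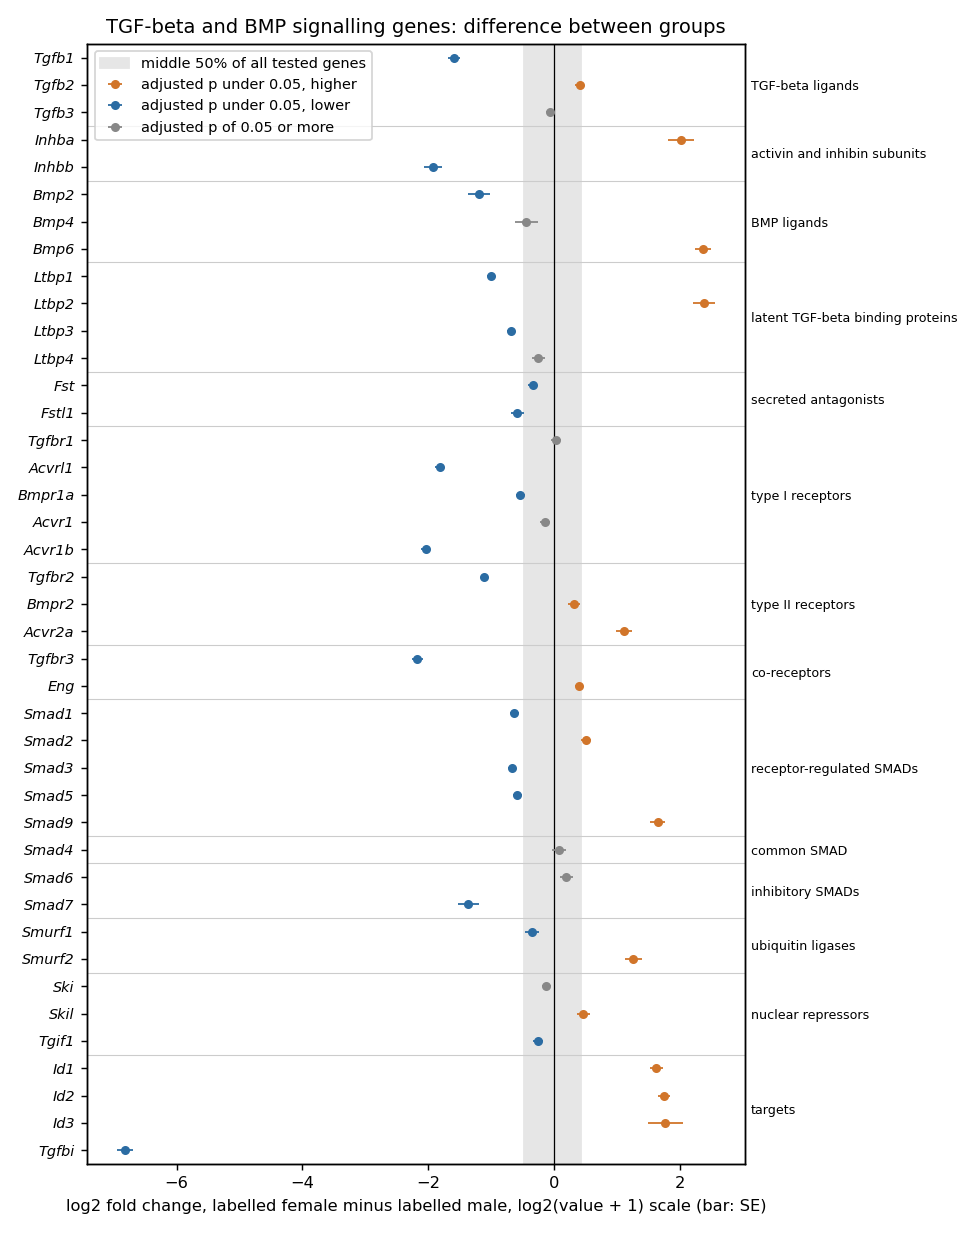
Log2 fold change (female minus male labels, log2(value + 1) scale) with its standard error for the 41 members by role, coloured by call, over a grey band that holds the middle 50% of all tested genes (-0.47 to 0.44). Of the 10 receptor and co-receptor genes 5 are called lower and 3 higher, the Id genes lie to the right, and Tgfbi stands apart at -6.82.

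All 5 receptor-regulated SMAD genes were called, beside 69.3% of all tested genes. Smad3, the most abundant of them, was at 251, 263 and 267 in the male libraries and 162, 155 and 175 in the female ones (log2 fold change -0.66, SE 0.06, limma adjusted p 3.01e-05), while its partner in the TGF-beta branch, Smad2, was higher, at 36.5, 42.6 and 43.6 against 57.6, 58.2 and 59.8 (log2 fold change 0.51, SE 0.08, limma adjusted p 0.000584). In the BMP branch, Smad1 fell from 65.9 ± 3.74 to 42.3 ± 2.26 and Smad5 from 109 ± 8.15 to 72.4 ± 2.31 (SD, n = 3), by 0.63 and 0.58 on the log2 scale. Smad9, the third BMP SMAD and itself a known BMP target, was at 3.65, 4.84 and 4.41 against 14.2, 17.1 and 15.7, a 3.64-fold higher level (log2 fold change 1.65, SE 0.12, limma adjusted p 6.66e-06). It remained the scarcest of the 5 per kb of exon, at 0.801 ± 0.113 and 2.92 ± 0.268 (SD, n = 3). Smad4, the shared partner, was at 154, 113 and 118 against 132, 138 and 136. The groups overlapped through male 4, and Smad4 was not called (log2 fold change 0.08, 95% interval -0.17 to 0.34, limma adjusted p 0.511); without male replicate 4 it was called higher (0.22, limma adjusted p 0.00212).

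The inhibitory SMADs, which block receptor signalling and are induced by it, parted. Smad7, the inhibitor with the broader reach, was at 182, 263 and 310 in the male libraries and 99.4, 93.5 and 92.3 in the female ones (log2 fold change -1.36, SE 0.17, limma adjusted p 0.000135). The male libraries spread widely, with male 4 lowest, yet each lay above all female ones. Smad6, the BMP-branch inhibitor whose start window holds the palindrome shown above, was at 28.0, 36.4 and 36.0 against 39.1, 39.7 and 36.2. These groups overlapped and Smad6 was not called (log2 fold change 0.20, 95% interval -0.05 to 0.45, limma adjusted p 0.129). The log2 ratio of Smad6 to Smad7 rose from -2.85 ± 0.212 to -1.29 ± 0.064 (SD, n = 3) without overlap.

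The ubiquitin ligases Smurf1 and Smurf2, which mark SMADs and receptors for degradation, were called in opposite directions. Smurf2 was at 165, 111 and 117 in the male libraries and 311, 314 and 309 in the female ones (log2 fold change 1.26, SE 0.13, limma adjusted p 5.59e-05). Smurf1 was at 355, 255 and 270 against 234, 226 and 225 (log2 fold change -0.34, SE 0.11, limma adjusted p 0.0255), a call lost without any 1 of the female replicates, with limma adjusted p from 0.0602 to 0.0752. Male 4 was the highest library for Smurf1, and without it the log2 fold change was -0.20 and still called (limma adjusted p 0.00286). Of the nuclear repressors of SMADs, Skil was higher (80.0, 60.8 and 63.0 against 93.2, 91.7 and 96.4, log2 fold change 0.47, limma adjusted p 0.00332). Tgif1 was slightly lower (log2 fold change -0.26, limma adjusted p 0.0213), which was lost without female replicate 5 (limma adjusted p 0.0874) or 6 (0.0570), and Ski was not called (log2 fold change -0.12, 95% interval -0.28 to 0.05, limma adjusted p 0.174).

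The 3 Id genes rose by similar factors. They encode helix-loop-helix proteins without a DNA-binding region that hold back basic helix-loop-helix factors, and they are the classical BMP targets. Id1 was at 10.7, 7.97 and 9.08 in the male libraries and 31.0, 31.3 and 29.6 in the female ones, 3.31-fold higher (log2 fold change 1.63, SE 0.11, limma adjusted p 4.18e-06). Id2 was at 13.3, 14.3 and 14.5 against 46.1, 56.4 and 47.8, 3.56-fold higher (log2 fold change 1.76, SE 0.09, limma adjusted p 1.13e-06). Id3 was at 10.7, 21.5 and 27.0 against 69.7, 68.2 and 59.2, 3.33-fold higher (log2 fold change 1.77, SE 0.27, limma adjusted p 0.000509). Male 4 was the lowest library for Id3, farther from the female libraries than male 5 and 6, whereas for Id1 it was the male library closest to them. The log2 ratio of Id1 to Id2 did not separate the groups, at -0.56 ± 0.250 and -0.69 ± 0.135 (SD, n = 3, exact two-sided permutation p 0.6). Id1 had no window in the promoter table.

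Tgfbi, a secreted matrix protein named for its induction by TGF-beta, had the largest change of all members. It was at 277, 359 and 369 in the male libraries and 1.66, 2.17 and 2.04 in the female ones, which rested on 40 or more reads per library. The male mean was 171 times the female mean (log2 fold change -6.82, SE 0.12, limma adjusted p 7.94e-09). The 4 target genes thus held 3 increases and 1 decrease.

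**Figure D3:**
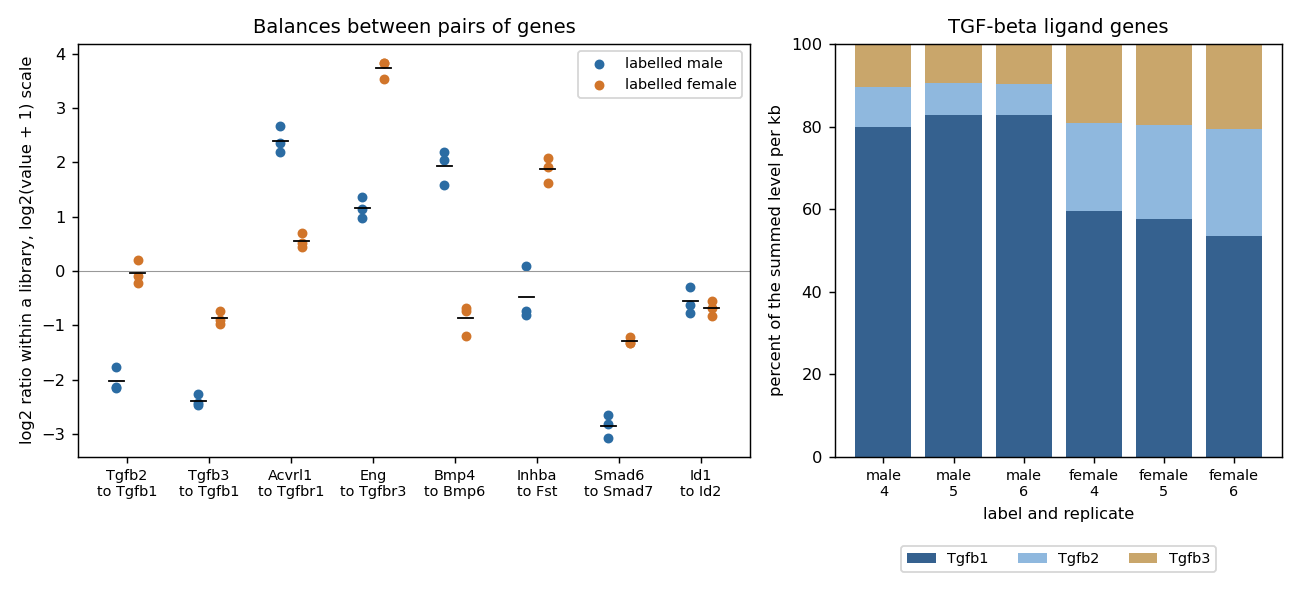
Left, the log2 ratio within each library for 8 pairs of members, with points for libraries, bars for group means, blue for male and orange for female labels; right, the percent of the summed level per kb of exon taken by each TGF-beta ligand gene in each library. In 7 of the 8 pairs the groups do not overlap, the exception being Id1 to Id2, and Tgfb1 takes 79.8% to 82.8% in male and 53.5% to 59.5% in female libraries.

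The 8 balances between pairs of members do not depend on the scaling factor of a library, apart from the pseudocount. They are not corrected for exon length, so only their difference between groups is read, not their sign. In 7 of them the groups did not overlap, and each gave an exact two-sided permutation p of 0.1 (0.114 adjusted over the 8), which is the smallest p that 3 against 3 libraries can give. Taken singly, 74.1% of all tested genes had groups that did not overlap, and no share over other gene pairs was computed. The log2 ratio of Tgfb2 to Tgfb1 went from -2.02 ± 0.216 to -0.03 ± 0.222, and that of Tgfb3 to Tgfb1 from -2.39 ± 0.114 to -0.87 ± 0.126 (SD, n = 3). The ratio of Eng to Tgfbr3 went from 1.16 ± 0.196 to 3.73 ± 0.169 (SD, n = 3). That of Bmp4 to Bmp6 fell from 1.94 ± 0.319 to -0.87 ± 0.281 (SD, n = 3). Per kb of exon, Bmp4 and Bmp6 were at 5.91 ± 1.40 and 0.671 ± 0.131 in male libraries and at 4.22 ± 0.866 and 4.61 ± 0.235 in female ones (SD, n = 3), so that they lay within 1 SD of each other in the latter.

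Male 4 stood apart from male 5 and 6 for some members. A difference of at least 0.5 on the log2(value + 1) scale from the mean of male 5 and 6 was found for 6 of 41 members (14.6%) and for 10% of all tested genes. Inhba (0.81), Ltbp2 (0.64), Smurf2 (0.53) and Smad7 (-0.65) lay on the side of the female libraries, while Id3 (-1.10) and Bmp4 (0.52) lay away from it. Acta2, the stellate and mural marker, was at 134 in male 4 and at 56.4 and 45.9 in male 5 and 6, and its part in these differences was not tested. Without male 4, 35 members were called, 15 higher and 20 lower, beside 74.8% of all tested genes in that fit.

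**Figure D4:**
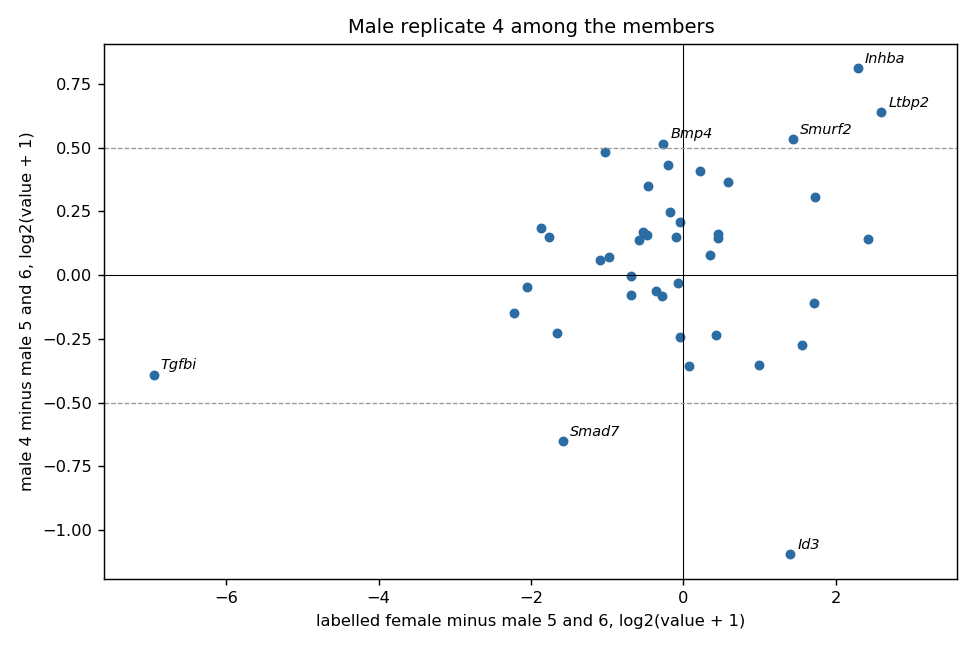
Difference of male replicate 4 from the mean of male 5 and 6 (vertical, log2(value + 1)) against the difference of the female mean from the same 2 libraries (horizontal) for the 41 members, with dashed lines at 0.5 and -0.5. The 6 members beyond the lines are named, and Tgfbi is named as the member farthest to the left.

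Other genes of the pathway were taken from a list of 83, of which 59 were in the table and 55 passed the filter, while 24 were not analysed here. Of the 55, 22 were higher and 24 lower in female libraries (83.6%, against 69.3% of all tested genes). Their median log2 fold change was 0.07. Among secreted antagonists 3 of 11 were higher and 8 lower, and among proteins of latent TGF-beta storage and activation 2 of 7 were higher and 4 lower. Acta2, Tagln, Thbs1 and Gdf6 were among the 5 largest increases, and the 5 largest decreases were those of Htra3, Itgb8, Emilin1, Inha and Chrd. Thbs1, thrombospondin, an activator of latent TGF-beta, was at 528, 411 and 393 in the male libraries and 3321, 2905 and 2596 in the female ones (log2 fold change 2.73, SE 0.13, limma adjusted p 5.73e-07). Itgb8, whose integrin also releases TGF-beta, was at 13.02, 10.2 and 9.32 against 0.456, 0.530 and 0.807 (log2 fold change -2.88, SE 0.15, limma adjusted p 9.44e-07). These 2 activators therefore went in opposite directions.

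The ligand Gdf6 held 1, 2 and 3 reads in the male libraries and 122, 150 and 136 in the female ones, a ratio of 78.9 (95% counting interval 36.0 to 216, limma adjusted p 5.58e-07). This interval covers counting error only. Chrd, the antagonist chordin, was lower, from 7.83 ± 0.426 to 1.10 ± 0.343 (SD, n = 3, log2 fold change -2.08), as was Htra3, a secreted protease, from 35.9 ± 3.88 to 2.89 ± 0.681 (log2 fold change -3.26). Emilin1, which restrains the maturation of TGF-beta, fell from 320 ± 19.3 to 46.5 ± 1.53 (log2 fold change -2.76), and Inha, the inhibin alpha subunit, from 8.45 ± 2.08 to 0.475 ± 0.229 (log2 fold change -2.67). Acta2 and Tagln, contractile genes that TGF-beta induces and that mark mural cells, rose by 4.57 and 4.43 on the log2 scale.

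Of the 11 tested targets outside the members, 5 were higher and 3 lower (72.7% called, against 69.3% of all tested genes). Atoh8 and Ccn2 are added here after their values were seen. Atoh8, a known BMP target in endothelium, was at 5.39, 8.96 and 8.51 in the male libraries and 40.0, 41.9 and 38.3 in the female ones (log2 fold change 2.28, SE 0.16, limma adjusted p 5.54e-06). Ccn2, listed as Ctgf and induced by TGF-beta, was at 176, 96.7 and 94.4 against 406, 423 and 363 (log2 fold change 1.75, SE 0.21, limma adjusted p 0.000130), again with male 4 nearest to the female libraries.

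**Figure D5:**
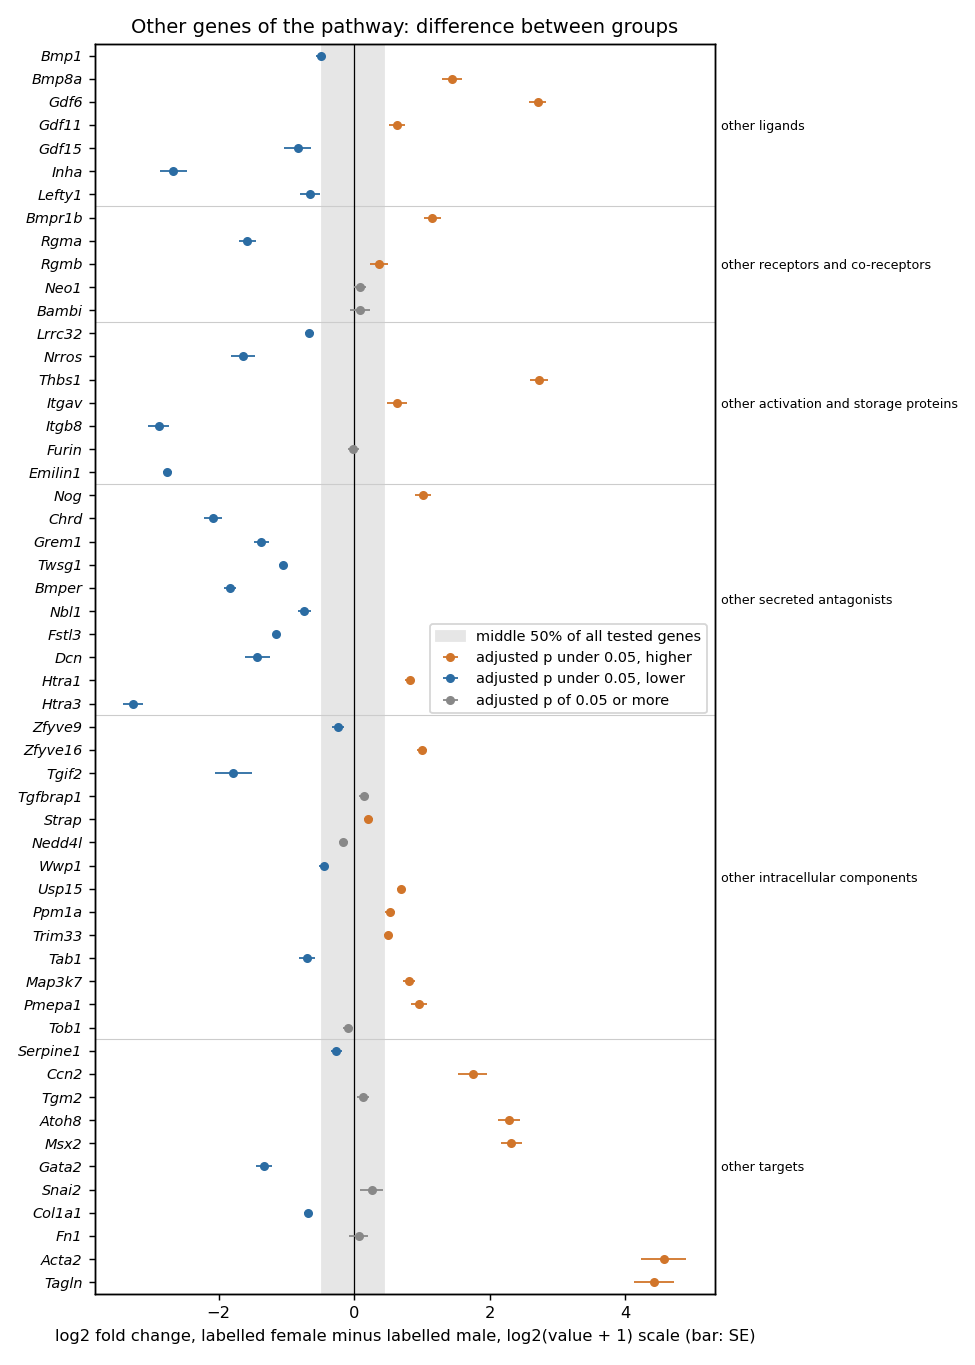
Log2 fold change (female minus male labels, log2(value + 1) scale) with its standard error for tested genes of the pathway outside the 41 members, by role and with 1 gene left out, over a grey band that holds the middle 50% of all tested genes. Acta2 and Tagln lie farthest to the right, and 8 secreted antagonists lie to the left of 0 as called decreases.

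In the authors' deposited table, 18 of the 41 members (43.9%) passed a false discovery rate of 0.05 (9 in each direction), beside 25.8% of the 13595 genes there. All 18 were also called by limma in the same direction, and 15 members were called by limma alone. The authors' deposited table calls Tgfb1, Acvrl1, Acvr1b, Tgfbr2, Tgfbr3, Smad7 and Tgfbi among the decreases, and Inhba, Bmp6, Ltbp2, Smad9, Smurf2 and the 3 Id genes among the increases. For Eng, Smad2 and Tgfb2, the authors' deposited table has false discovery rates of 0.516, 0.1498 and 0.284. Those of Smad1, Smad3 and Smad5 there are 0.0570, 0.07225 and 0.0593, so these SMADs are not called by the authors either.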

How the data were processed

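The 6 libraries were made from poly(A)-enriched RNA with a Kapa HyperPrep kit, per the labels' protocols. Bowtie2, RSEM, edgeR and build mm39 are named in the submitters' processing notes, with no version or role. Signal in the deposited table is a normalized read count. From the values, these are whole reads scaled by 1 factor per library: 100% of the values in each column were within 0.01 of a whole multiple of its smallest value above 0. The rule behind the table's detectable genes is not given in the sources used here. A score in the deposited table gives a signed fold change, and its p-value and FDR columns come from the authors' own test, per the file headers.

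The members and gene lists were chosen with earlier results of these data known. Limma 3.58.1 (R 4.3.3, eBayes with trend) was fitted to log2(value + 1) over the 12568 genes that reached 1 in 3 or more libraries, with Benjamini-Hochberg adjustment at 0.05. Fold changes on this scale understate those of weakly expressed genes. Alternatives were a pseudocount of 0.1, no filter, RLE or quantile scaling, edgeR 4.0.16 on the recovered reads (8975 of 13199 genes called), the replicate block and each library left out. Both tools were tested on simulated data. Named by rule were all members, the 5 largest called changes in each direction among other pathway genes without overlap between groups, the sex genes and listed markers; any other pathway gene or marker named was chosen after its values were seen. Of the genes under the rule, 1 pathway gene is counted but its values are not reported here. Levels per kb used exon lengths of GENCODE M21 (GRCm38), not the authors' build, so no gene coordinates are given beside the RefSeq windows. Of the members' 50-base stretches, at most 3.85% (Tgfbr3) occur in other genes, and at most 12.4% of exon bases (Tgfb3) overlap another gene. Strandedness is not given in the sources used here. No batch is given in the labels; one that coincided with the sexes and the sexes themselves cannot be told apart.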

Additional observations from a re-analysis of the deposited data

How the results depend on the processing

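Of the 33 members called, 31 kept call and direction in all 12 alternatives; Smurf1 and Tgif1 lost the call in 6 of the recomputed values without changing direction. Of the members' 492 recomputed values, 481 kept both and 4 gained a call (Bmp4, Smad4 and, in 2 fits, Ltbp4). The uncalled Tgfbr1 reversed, at -0.0471 without male replicate 4, within a range of -0.0471 to 0.0826 over the fits that left out 1 library; the cause was not tested. Under quantile normalization Smurf1 had a limma adjusted p of 0.0510. Leaving out 1 library called from 31 to 35 members, from 37 to 46 other pathway genes and from 7373 to 9113 genes in all. The other alternatives called 32 or 33 members. Of the 8 balances, 7 kept the sign of their difference in the alternatives run for them (a pseudocount of 0.1 and each library left out); Id1 to Id2, whose groups overlap, lay between -0.232 and 0.0124, the latter without male replicate 4. Same-numbered libraries did not deviate together (correlations across genes of -0.09, -0.03 and -0.17), so the numbers are no evidence of pairing. With the replicate block, 33 members, 44 other pathway genes and 8314 genes in all were called. Every member held at least 40 reads in each library (the fewest were those of Tgfbi in female 4).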
